A study of Mus musculus with 24 samples.

Results

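MicroRNAs (miRNAs) were compared between the lungs of mice at postnatal day 7 and at postnatal day 4, with 5 arrays at each age out of 24 arrays in the series. The arrays of each age were taken by their titles, which also call them biological replicates. All were healthy C57BL/6 mice, and the labels name no allele or agent at either age. Whole lung was used, total RNA was taken up with the miRNeasy mini kit, and 100 ng of it was labelled with the dye Cy3 and put on an Agilent array of the 1-colour kind. The series title names fetal lungs, but the sample labels give ages after birth, which were followed here. Of the 611 mouse miRNA names on the array, 349 were detected on at least 1 of the 10 arrays, 262 on none, and the 309 that were detected on every array of day 4 or of day 7 were tested. Each of the 309 was detected on all 5 day 7 arrays, and 273 of them also on all 5 day 4 arrays.

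A miRNA is a short RNA that guides an Argonaute protein to messages holding a match to its seed, bases 2 to 8 from its 5′ end, and lowers their output. MiRNAs with the same seed form a family with many targets in common. The days between these ages fall at the start of alveolar formation in the mouse, when ridges called septa grow into the air sacs, the double capillary net is laid down, and myofibroblasts deposit elastin. In whole lung the most abundant miRNAs come from endothelium, mesenchyme, epithelium and the blood held in the vessels, so that in such bulk RNA fewer cells of a type and less RNA per cell cannot be told apart.

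The sequences of the families and of the abundant miRNAs on which the results turn are shown first. In several families with a shared seed some members were shown to be steady and others were not. Whether such members differed from each other was not tested. They are the mature sequences in RefSeq (build GRCm38.p6), written 5′ to 3′ with the seed in capitals. Older array names carry no arm and were matched by hand to the arm of the main product. Sequences were looked up for 40 of the 309 tested names, and 22 are shown.
let-7a: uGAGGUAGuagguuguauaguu
let-7b: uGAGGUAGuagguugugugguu
let-7f: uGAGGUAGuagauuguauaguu
let-7i: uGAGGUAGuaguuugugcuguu
miR-16: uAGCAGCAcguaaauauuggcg
miR-15a: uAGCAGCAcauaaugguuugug
miR-15b: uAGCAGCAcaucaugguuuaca
miR-322: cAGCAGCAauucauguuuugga
miR-17: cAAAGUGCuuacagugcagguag
miR-20a: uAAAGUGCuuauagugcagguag
miR-93: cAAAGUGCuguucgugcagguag
miR-30a: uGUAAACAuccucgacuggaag
miR-30c: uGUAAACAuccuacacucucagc
miR-29a: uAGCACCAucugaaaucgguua
miR-29b: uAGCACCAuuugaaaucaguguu
miR-29c: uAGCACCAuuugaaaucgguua
miR-141: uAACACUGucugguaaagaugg
miR-200a: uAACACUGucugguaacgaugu
miR-26a: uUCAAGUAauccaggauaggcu
miR-130a: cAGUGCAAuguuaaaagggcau
miR-24: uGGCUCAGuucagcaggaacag
miR-210: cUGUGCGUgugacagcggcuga

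In that build miR-210 lies on the minus strand at chr7:141221407-141221428, miR-141 on the minus strand at chr6:124717917-124717938 and miR-200a on the minus strand at chr4:156054911-156054932. MiR-29a lies at chr6:31062673-31062694 and miR-29c at chr1:195037600-195037621, and miR-29b has a copy beside each of them. Both copies of miR-16 lie beside a miR-15 gene, inside the interval of the long noncoding gene Dleu2 next to miR-15a on chromosome 14 and inside Smc4 next to miR-15b on chromosome 3. Exons and introns were not analysed here.

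A pair of day 4 arrays was dimmer than the rest. Brightness, the 75th percentile of the raw signals of the 226 mouse miRNAs detected on all 24 arrays, was 767 intensity units on day 4 replicate 1 and 989 on day 4 replicate 3, against 1340 to 1681 on the other 8 arrays. It averaged 1241 ± 346 at day 4 and 1504 ± 161 at day 7 (SD, n = 5 each; exact permutation test, two-sided p = 0.183). The number of mouse miRNAs detected per array was 313.6 ± 20.2 at day 4 and 325.8 ± 9.09 at day 7 (SD, n = 5 each; exact permutation test, two-sided p = 0.262). Day 4 replicate 1 detected 279, and the other 9 arrays 315 to 337. Of the 36 tested miRNAs that were not detected on every day 4 array, 29 were missed on that replicate alone. The log2 values of day 4 replicates 1 and 3 had a median correlation of 0.953 and 0.980 with the other 9 arrays, and those of the remaining 8 arrays 0.992 to 0.997. These 2 replicates, called the dim arrays, are kept in the values. Small changes often took the other sign without them, so values without them are given beside those with them. All values that follow are log2 of the signal per miRNA, each array scaled by its brightness, so that every change is relative to those 226 miRNAs.

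Between day 4 and day 7 no miRNA was called by limma at an adjusted p under 0.05 (0 of 309, or 0%). At an unadjusted p under 0.05 there were 11 (3.56%), of which 2 were higher and 9 lower at day 7. The lowest adjusted p was 0.719. The median change of the 309 miRNAs was -0.055, with quartiles of -0.23 and 0.13, and 129 changes lay above 0 and 180 below. For 4 miRNAs (1.29%) all arrays of one age lay above all arrays of the other. Other ways of processing the same arrays also gave 0 calls, with 2 exceptions. With arrays weighted by their quality 3 were called, a rise of miR-1897-5p by 0.33 and falls of miR-18a* by 0.63 and of miR-210 by 0.29. When miRNAs detected on any of the 10 arrays were admitted, 349 were tested and 2 were called, as falls of miR-1193 by 0.80 and of miR-675-3p by 0.75. Neither of these 2 was detected on every array of day 4 or of day 7. These 5 names were picked after their values were seen. The limma count at an unadjusted p under 0.05 also depended on the setting. It was 0 with normexp background correction and without the dim arrays, 33 with only the 10 arrays and 37 with array weights. Among settings with 0 calls, the lowest adjusted p in limma was 0.0677 with the deposited table and 0.0739 with quantile normalization.

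A missing call does not show that a level held. Steadiness was therefore tested by itself: 2 one-sided tests on the same fit asked whether a change lay within 1.5-fold either way (0.58 on the log2 scale), with the adjustment over the 273 miRNAs detected on all 10 arrays. By this test 100 of 273 miRNAs were steady from day 4 to day 7 (36.6%), and 173 were neither called nor shown to be steady. With a margin of 2-fold 237 were steady, and with a margin of 0.32 on the log2 scale 0 were. The unadjusted 95% limits tell the same in folds: they stayed within 1.5-fold for 108 miRNAs, within 2-fold for 227 and within 3-fold for 258. The limits of the typical miRNA reached 0.45 to each side of its change, from 0.22 for the most precise to 2.12 for the least. Steady names were more frequent among bright miRNAs, with 47 of the 91 brightest, 29 of the 91 of middle brightness and 24 of the 91 dimmest. With only the 10 arrays in the fit 146 were steady, and all of the 100 were among them.

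**Figure D1:**
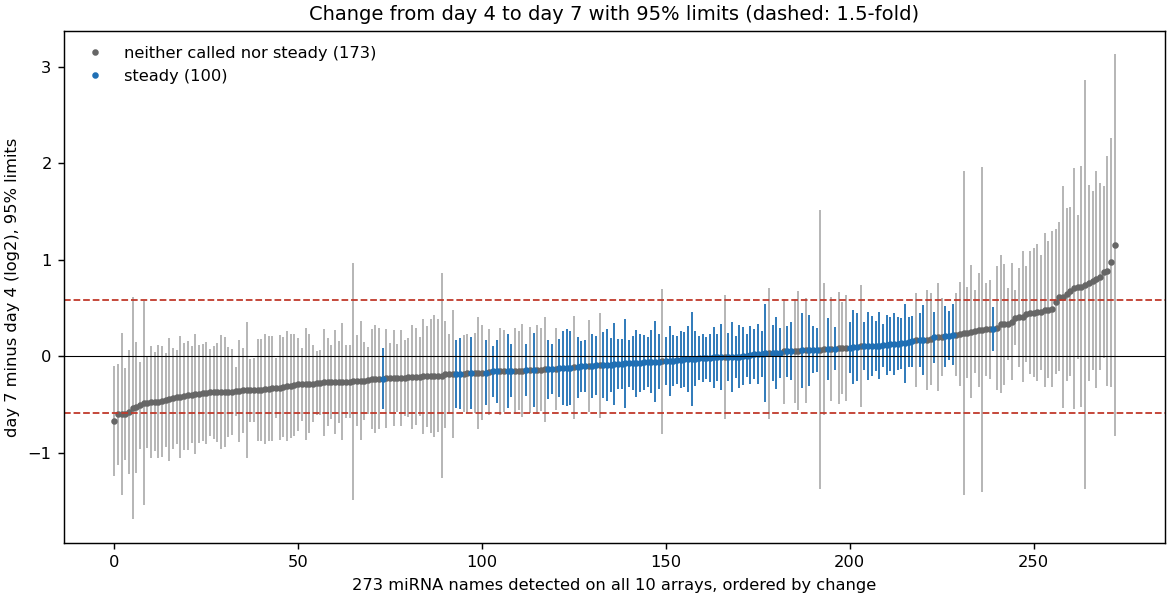
The change from day 4 to day 7 (log2, vertical axis) of each of the 273 miRNAs detected on all 10 arrays, ordered from the largest fall to the largest rise along the horizontal axis, with 95% confidence limits as vertical lines. The 100 steady miRNAs (blue) have limits inside the dashed lines at 1.5-fold. The 173 others (grey) have limits that cross a dashed line or come near it. The widest limits stand at the right end among the largest rises.

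Steady means here that a miRNA kept its place relative to the others. With no scaling between arrays the median change was 0.27, 84.5% of the changes lay above 0, and 55 miRNAs were steady, of which 2 belonged to the 100. The 5 other scalings gave 90 to 118 steady miRNAs, and shared 78 to 99 of them with the 100. Whether the whole pool of miRNAs per lung or per cell was the same at both ages was not tested.

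Among the 10 miRNAs with the brightest signal, called the most abundant here, 9 were steady. These were miR-451 of red blood cells, miR-126-3p of endothelium, let-7a, let-7f, let-7c, miR-26a, miR-130a and miR-24, and also miR-720, an array name whose sequence belongs to a fragment of transfer RNA. The exception was miR-23a, whose limits of -0.56 to 0.26 lay inside 1.5-fold while its adjusted p for steadiness was 0.0521. Of the 9, miR-451 was steady under 14 of the 29 alternatives, and the others under 20 to 28.

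Let-7f, of a family that keeps differentiated cells in their state, had the limits that stayed closest to 0 of the 273. On replicates 1 to 5 of day 4 it stood at 14.23, 14.34, 14.37, 14.14 and 14.23, and on those of day 7 at 14.27, 14.17, 14.20, 14.35 and 14.28. The 10 values lay within a narrow band, with the 2 ages mixed, dim replicate 3 the highest and day 4 replicate 4 the lowest. The change was -0.0060 ± 0.11 (SE), with limits of -0.23 to 0.21 and an adjusted p for steadiness of 0.00103, so that a change beyond 1.17-fold lay outside them.

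MiR-26a, which slows the cell cycle and lies within genes of the Ctdsp family of phosphatases, read 13.80, 13.75, 13.96, 13.55 and 13.62 at day 4. At day 7 it read 13.69, 13.68, 13.60, 13.86 and 13.75. Day 4 replicate 3 was the highest of the 10 and day 4 replicate 4 the lowest, so that the day 7 arrays lay within the range of day 4. Its change of -0.019 ± 0.12 had limits of -0.27 to 0.23 (adjusted p for steadiness 0.00157), and without the dim arrays the change was 0.076.

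MiR-126-3p, which is made from the endothelial gene Egfl7 and keeps vessels intact, stood at 14.80, 14.88, 15.00, 14.61 and 14.78 at day 4. Its day 7 values were 14.91, 14.88, 14.87, 15.06 and 14.90. They overlapped those of day 4, and the highest value was that of day 7 replicate 4. The change was 0.11 ± 0.13, within limits of -0.15 to 0.37 (adjusted p for steadiness 0.00401). The other arm of the hairpin, miR-126-5p, changed by 0.27 with limits of -0.32 to 0.86, which are too wide for the test of steadiness, and by -0.019 without the dim arrays.

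Among steady miRNAs outside the 10 most abundant, the narrowest limits belonged to let-7i, miR-542-5p, miR-669a, miR-350, miR-17* and miR-340-3p. Their changes ran from -0.019 for miR-542-5p to 0.11 for miR-669a, with standard errors of 0.11. The least change of them was that of miR-340-3p, 0.0066 with limits of -0.22 to 0.23. Across the 29 alternatives run, 66 of the 100 steady miRNAs were steady in each one except those with normexp background correction and with no scaling. Under those 2 settings 24 and 55 miRNAs were steady, and none of the 100 was steady under all 29.

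**Figure D2:**
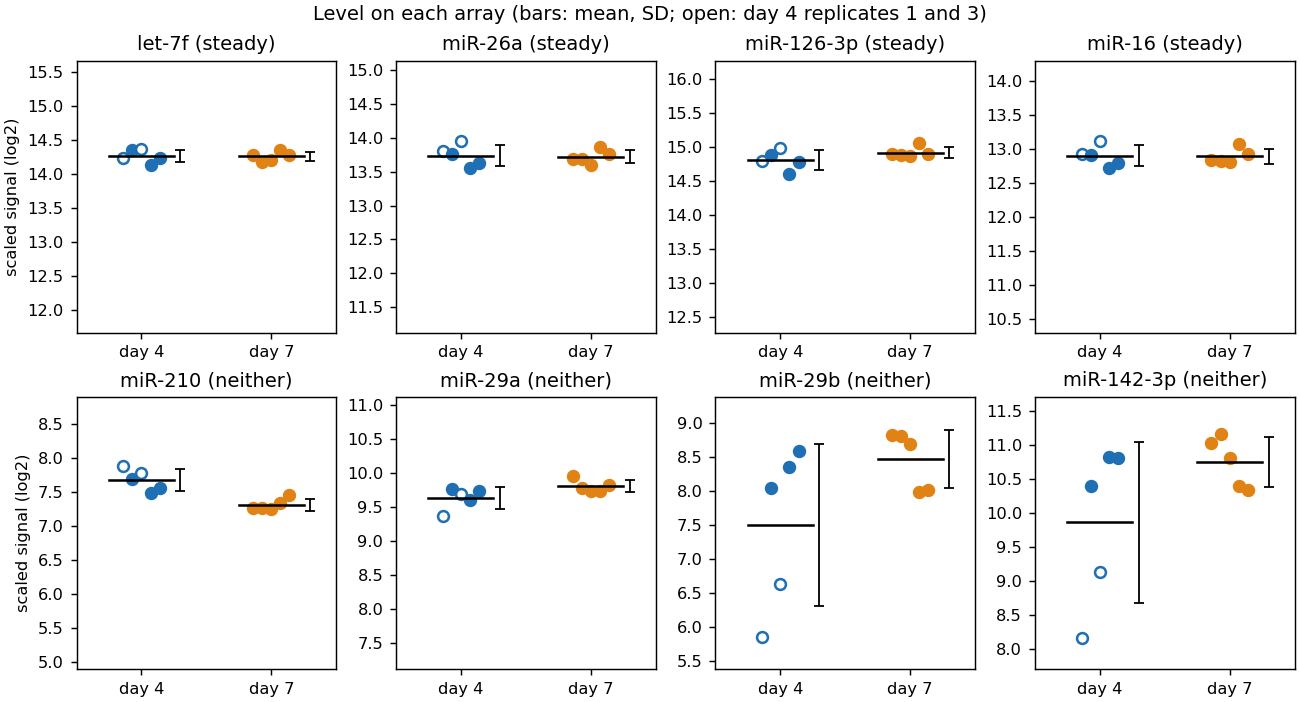
Level of 8 miRNAs (scaled signal, log2) on each of the 5 day 4 arrays (blue) and 5 day 7 arrays (orange), with the mean as a bar and the SD as an error bar beside it; open circles are the dim arrays, day 4 replicates 1 and 3, and every panel spans the same number of log2 units. In the upper row, of steady miRNAs, the points of both ages lie in narrow bands; in the lower row miR-210 stands lower on every day 7 array, and the low day 4 means of miR-29b and miR-142-3p rest on the open circles.

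The families can be set side by side through their seeds, with their steady counts read against the 36.6% over all 273. Of the 9 members of the let-7 family, which share the seed GAGGUAG and mark cells that have left the embryonic state, 7 were steady, 0 were called and the median change was -0.12, against -0.055 for all tested miRNAs. The 7 were let-7a, let-7c, let-7d, let-7f, let-7g, let-7i and miR-98. The changes of all 9 lay between -0.23 and 0.079. Let-7b and let-7e missed steadiness with changes of -0.14 and -0.23 and adjusted p-values of 0.0646 and 0.0613. The sign of the family median is not settled, since it was 0.049 without the dim arrays and above 0 under 7 of the 29 alternatives, 2 of them scalings, at 0.203 with none. Let-7b was at 0.12 and let-7e at 0.0057 without the dim arrays, when let-7e was steady. Let-7a differs from let-7c, let-7e and let-7f by 1 of 22 bases each, and whether their probes share signal was not tested.

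In the seed group AGCAGCA, whose members lower cyclins and other drivers of the cell cycle, miR-16 was steady and the 2 miR-15 miRNAs were not shown to be. MiR-16 stood at 12.93, 12.92, 13.12, 12.72 and 12.79 at day 4 and at 12.83, 12.82, 12.81, 13.07 and 12.92 at day 7, with both ages mixed. Its change was -0.0077 ± 0.12, with limits of -0.26 to 0.24, and 0.079 without the dim arrays. MiR-322, from a cluster on the X chromosome, was steady as well (0.061, limits -0.31 to 0.43, and -0.067 without them).

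MiR-15a, made beside a copy of miR-16, stood at 11.27, 12.24, 11.78, 12.21 and 12.24 at day 4 and at 12.40, 12.42, 12.41, 12.35 and 12.17 at day 7. The dim arrays were the lowest of the 10, and the other arrays of both ages overlapped. Its change of 0.40 had limits of -0.11 to 0.92, and it was 0.12 without the dim arrays. MiR-15b went the other way, at -0.25 with limits of -0.60 to 0.10, and at -0.020 without them, when it passed as steady.

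MiR-195 and miR-497 are made together from another cluster of the same family and were the only members called over the preceding step. No sequence was matched for them, so the seed group above leaves them out. From day 1 to day 4 miR-195 rose by 0.69 (adjusted p = 0.00294) and miR-497 by 0.66 (adjusted p = 0.00294). From day 4 to day 7 both were steady. MiR-195 stood at 11.47, 11.69, 11.79, 11.47 and 11.46 and then at 11.68, 11.69, 11.70, 11.89 and 11.70. Its change was 0.16, with limits of -0.11 to 0.42. For miR-497 all day 7 arrays were above all day 4 arrays, by less than the rounding at the closest pair, from 11.35, 11.63, 11.63, 11.46 and 11.49 to 11.69, 11.75, 11.68, 11.86 and 11.63, yet the change of 0.21 had limits of -0.037 to 0.46 and passed the test of steadiness (adjusted p = 0.0114). Altogether 3 of 5 tested members of the miR-15, miR-16 and miR-195 family were steady, with a median change of 0.16, and of 0.12 without the dim arrays.

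The growth-linked miR-17 clusters had 5 of 10 tested members steady, among them miR-17, miR-20a and miR-93, which share the seed AAAGUGC. MiR-17 changed by -0.13 (limits -0.39 to 0.13), miR-20a by 0.074 (limits -0.25 to 0.40) and miR-93 by -0.14 (limits -0.42 to 0.13). The median of the clusters was 0.090, and -0.0054 without the dim arrays, with the other sign under 5 of the 29 alternatives. Without those arrays the 3 members were at -0.0074, -0.011 and -0.015. Their members miR-18a at 0.23, miR-19a at 0.48 and miR-19b at 0.22 were not shown to be steady. Without the dim arrays miR-18a was at -0.0034, miR-19a at 0.0071 and miR-19b at 0.055.

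Of the miR-30 family, abundant in epithelium and linked to the restraint of fibrosis, 3 of 5 members were steady (median change -0.0076, 0.11 without the dim arrays, and of the other sign under 12 of the 29 alternatives, 2 of them scalings). MiR-30b changed by -0.0076, miR-30c by -0.12 and miR-30d by -0.029, and without the dim arrays by 0.072, 0.060 and 0.12. MiR-30a was at 0.34 with limits of -0.037 to 0.71 and was steady without the dim arrays, at 0.16. In the miR-322 cluster 3 members were steady out of 10 tested, of which 8 were detected on all 10 arrays and could be steady. The median was 0.085, -0.022 without the dim arrays and below 0 under 6 of the 29 alternatives, median scaling among them. There miR-503 changed by 0.33 (limits -0.38 to 1.04) and miR-351 by -0.17 (limits -0.75 to 0.41), and without the dim arrays by -0.033 and 0.059.

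The miR-29 family, with the seed AGCACCA, represses collagens, elastin and other matrix genes that are laid down as the septa form. None of its 3 members was called, with 0 at an unadjusted p under 0.05, and none was steady. The median of the 3 was 0.45, and 0.14 without the dim arrays. MiR-29a stood at 9.37, 9.77, 9.69, 9.60 and 9.74 at day 4 and at 9.96, 9.78, 9.74, 9.75 and 9.82 at day 7. Day 4 replicate 2 lay within the span of day 7, the other day 4 arrays lay below it, and the lowest was dim replicate 1. Its change of 0.18 ± 0.23 had limits of -0.30 to 0.65, so that a change beyond 1.57-fold lay outside them, and it was 0.11 without the dim arrays.

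MiR-29b read 5.85, 8.04, 6.63, 8.35 and 8.59 at day 4 and 8.82, 8.81, 8.68, 7.99 and 8.02 at day 7. The dim arrays were more than 1 log2 unit below the other 8 arrays, whose 2 ages overlapped, and the lower day 7 values were those of replicates 4 and 5, the dimmest day 7 arrays. The change was 0.97 ± 0.62 (limits -0.32 to 2.26, adjusted p = 0.719) and 0.14 without the dim arrays (limits -1.22 to 1.49). MiR-29c changed by 0.45 (limits -0.22 to 1.13), and by 0.17 without them.

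The value of miR-210, the miRNA most closely tied to hypoxia and the factor HIF, had the lowest unadjusted p of the 309. At day 4 it stood at 7.87, 7.69, 7.77, 7.47 and 7.56, and at day 7 at 7.25, 7.26, 7.24, 7.34 and 7.45. Every day 7 array lay below every day 4 array, although by a narrow gap between day 7 replicate 5 and day 4 replicate 4. The change was -0.36 ± 0.12 with limits of -0.62 to -0.11, and it did not pass the adjustment over 309 miRNAs (limma, adjusted p = 0.719). Within slides 1, 2 and 3 it was -0.58, -0.27 and -0.38. The only day 4 array of slide 1 was dim replicate 1. Slide 3 held 1 day 7 array and, among its day 4 arrays, dim replicate 3, and slide 2 held no dim array. The change was below 0 under all 29 alternatives, at -0.041 with no scaling, and -0.27 without the dim arrays, when it was steady within 1.5-fold. MiR-210 was called in the steps on either side, with -0.55 from day 1 to day 4 (adjusted p = 0.0156) and -0.44 from day 7 to day 14 (adjusted p = 0.00643). The step from day 4 to day 7 was not shown to differ from the later of these (difference -0.075, adjusted p = 0.919) or from the earlier (difference 0.19, adjusted p = 0.949).

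The other miRNAs without overlap between the ages were miR-497, miR-30b* and miR-192, picked like miR-210 here because their arrays did not overlap. All 3 were higher at day 7 and all 3 were steady. MiR-30b* went from 4.83, 5.15, 4.94, 5.04 and 5.09 to 5.29, 5.32, 5.19, 5.41 and 5.24, a change of 0.28 with limits of 0.050 to 0.51 that exclude 0 and yet stay within 1.5-fold. MiR-192 changed by 0.22 (limits -0.091 to 0.54). Without the dim arrays miR-497 was at 0.20, miR-30b* at 0.20 and miR-192 at 0.15.

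The largest changes rested on the dim arrays. Of the 309 miRNAs 24 changed by more than 1.5-fold, 20 of them upward, and for all 20 day 4 replicate 1 was the lowest of the 10 arrays. Of miRNAs detected on all 10 arrays, 20 changed by more than 1.5-fold either way. The rest of the 24 were tested only because every day 7 array detected them, so a low day 4 value is partly built into their choice. Without the dim arrays 0 of these 24 were past 1.5-fold, the largest rise among them was 0.35, and 1 of all 309 was past 1.5-fold. The steady miRNAs then numbered 135, of which 95 were among the 100, and limma called 0 miRNAs (also 0 when p was not adjusted). With only the 8 remaining arrays in the fit 254 were steady, and all of the 100 were among them.

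Among miRNAs detected on all 10 arrays, the 6 largest changes that were neither called nor steady were all rises, of miR-144, miR-29b, miR-142-3p, miR-24-1*, miR-142-5p and miR-141. MiR-144, made together with miR-451 in red blood cells, went from 7.20, 9.74, 8.10, 11.08 and 10.87 to 11.12, 11.11, 11.33, 9.47 and 9.70. The dim arrays were the lowest, and day 7 replicates 4 and 5 fell among the day 4 arrays. Its change of 1.15 ± 0.95 had limits of -0.83 to 3.13 and was -0.015 without the dim arrays.

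MiR-142-3p, which is made in blood cells of all lineages, stood at 8.15, 10.39, 9.12, 10.82 and 10.81 at day 4 and at 11.03, 11.16, 10.80, 10.40 and 10.33 at day 7. Here too the dim arrays were the lowest and the other 8 overlapped. The change of 0.89 (limits -0.31 to 2.08) became 0.070 without them, and that of its partner arm miR-142-5p went from 0.83 to 0.19. MiR-24-1*, the minor arm of a miR-24 hairpin, was at 0.88, and at 0.32 without the dim arrays.

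MiR-141 and miR-200a, epithelial miRNAs that restrain the repressors Zeb1 and Zeb2, share the seed AACACUG and differ by 2 of 22 bases. MiR-141 went from 7.98, 10.20, 8.84, 10.33 and 10.47 to 10.55, 10.66, 10.48, 10.09 and 10.02, with the dim arrays lowest. Its change was 0.80 with limits of -0.33 to 1.92, and 0.027 without the dim arrays. MiR-200a changed by 0.24 (limits -0.23 to 0.72), and by 0.0081 without them, when it was steady.

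**Figure D3:**
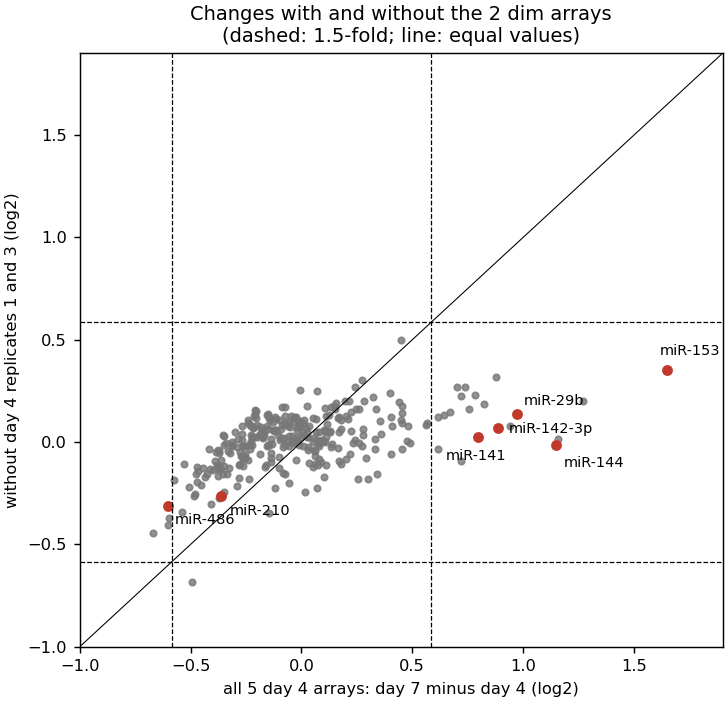
The change from day 4 to day 7 (log2) of each of the 309 tested miRNAs with all day 4 arrays (horizontal axis) and without the dim arrays, day 4 replicates 1 and 3 (vertical axis), with lines at 1.5-fold (dashed) and at equal values (solid). The rises past 1.5-fold at the right, among them miR-153, miR-144 and miR-29b, lie between the dashed horizontal lines, as do miR-210 and miR-486.

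Markers of cell types were followed as lists, all with 0 members called. Only members detected on all 10 arrays could be steady, at 36.6% of all 273. Counts out of tested members are to be read against 32.4% of all 309. The endothelial list had 2 of 4 tested members steady (miR-126-3p and miR-221) and a median change of -0.031. That median was 0.035 without the dim arrays and above 0 under 8 of the 29 alternatives, no scaling among them. Of the mesenchymal and smooth muscle list 5 of 9 were steady, with a median of -0.14. It was 0.058 without the dim arrays and above 0 under 6 of the 29 alternatives, no scaling among them. MiR-199a-3p and miR-199a-5p, which are made antisense to dynamin genes, changed by -0.040 (limits -0.29 to 0.21) and 0.031 (limits -0.26 to 0.32), and without the dim arrays by -0.0035 and 0.027. The smooth muscle miRNA miR-143 was steady (0.21, limits -0.11 to 0.52), whereas its cluster partner miR-145 was not shown to be (-0.21, limits -0.81 to 0.39). Leaving out the dim arrays put miR-143 at 0.11 and miR-145, with the other sign, at 0.16.

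The epithelial list had 4 steady members out of 13 tested, of which 11 were detected on all 10 arrays. Its median was 0.0065, 0.012 without the dim arrays, and below 0 under 10 of the 29 alternatives, 2 of them scalings. Its summed level, on the log2 scale, lay between 13.06 and 13.18 at day 4 and between 13.05 and 13.12 at day 7. MiR-200b changed by -0.28 (limits -0.61 to 0.060), and by -0.051 without the dim arrays, when it was steady. None of the 6 multiciliated miRNAs tested, 5 of them detected on all 10 arrays, was steady. The median of the 6 was -0.15, -0.10 without the dim arrays, and above 0 under 3 of the 29 alternatives, no scaling among them. Among them miR-34c changed by 0.17 (limits -0.35 to 0.69) and miR-34b-5p by 0.49 (limits -0.32 to 1.30). Both were below 0 without the dim arrays, at -0.091 and -0.0068. Of the names on the array, 13 of 14 epithelial and all 4 endothelial ones could be tested, against 309 of all 611. All 8 leukocyte names could be tested as well, so these counts do not identify the tissue.

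Blood markers need their own account, since whole lungs hold blood. The leukocyte list had 3 of 8 members steady, with a median of -0.16, 0.079 without the dim arrays, and above 0 under 6 of the 29 alternatives, no scaling among them. It had a summed level of 12.34 to 12.41 at day 4 and 12.32 to 12.51 at day 7. In it, miR-223 of neutrophils changed by -0.16 (limits -0.48 to 0.17) and miR-150 of lymphocytes by -0.20 (limits -0.84 to 0.43). With the dim arrays left out miR-223 was at -0.020 and miR-150, with the other sign, at 0.15. Of the 3 red blood cell miRNAs, miR-451 stood at 14.65, 14.84, 15.01, 15.35 and 14.90 at day 4 and at 14.92, 14.63, 15.02, 14.81 and 14.99 at day 7, with both ages mixed. It was steady, with a change of -0.075 and limits of -0.54 to 0.39, but not without the dim arrays, at -0.16.

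MiR-486, from the red cell and muscle gene Ank1, went from 8.66, 7.63, 8.32, 8.11 and 7.55 to 7.38, 7.04, 7.55, 7.55 and 7.74. Dim replicate 1 was the highest, day 7 replicates 1 and 2 were the lowest, and the ages overlapped in between. The change was -0.60 with limits of -1.13 to -0.076 (limma, adjusted p = 0.719), and -0.31 without the dim arrays (limits -0.89 to 0.26). The 3 red blood cell miRNAs thus had values of -0.60, -0.075 and 1.15, with a summed level of 14.68 to 15.43 at day 4 and 14.75 to 15.14 at day 7.

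Striated muscle markers, which heart or chest wall could add to a lung, spread widely between the day 7 arrays. MiR-133a ran from 7.02 to 7.49 at day 4 and from 6.08 to 8.69 at day 7, and day 7 replicate 4 was the lowest and day 7 replicate 5 the highest of the 10. Its change of 0.24 had limits of -1.44 to 1.92, and that of miR-1 was 0.74 with limits of -1.38 to 2.86. Without the dim arrays they were at 0.27 and 0.27. None of the 4 tested members, 3 of them detected on all 10 arrays, was called or steady. Among markers of other organs, miR-128 was steady (0.023, limits -0.28 to 0.33), and miR-375 of endocrine cells was at -0.37 (limits -0.81 to 0.072), and without the dim arrays they were at 0.18 and -0.13. Whether muscle or blood in the samples moved other values was not tested.

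The imprinted Dlk1-Dio3 region makes a large set of miRNAs from the maternal chromosome 12 that are abundant in growing tissue. None of its 41 tested members was called, and 2 were steady, out of 37 detected on all 10 arrays. Of the 41, 27 were below 0, with a median of -0.14 and a range of -0.60 to 0.72. The median was -0.12 without the dim arrays, and above 0 under 1 of the 29 alternatives, no scaling, at 0.184. MiR-433 changed by -0.44 (limits -1.08 to 0.19), miR-431 by -0.28 (limits -0.80 to 0.23) and miR-337-5p by -0.43 (limits -0.91 to 0.060), and without the dim arrays by -0.13, -0.17 and -0.16. MiR-337-3p, the other arm of its hairpin, was at 0.061, and at -0.11 without them. From the imprinted genes H19, Igf2 and Mest 3 miRNAs were tested, 2 of them detected on all 10 arrays. The median of the 3 was -0.13, 0.010 without the dim arrays, and above 0 under 5 of the 29 alternatives, no scaling among them. Of the 3, 1 was steady. This was miR-335-5p from Mest, which stood at 10.57, 11.14, 11.13, 10.92 and 11.13 at day 4 and at 11.04, 11.04, 10.99, 11.19 and 11.09 at day 7. The values of the 2 ages were mixed apart from dim replicate 1, the lowest. Its change was 0.095 with limits of -0.28 to 0.47, and 0.010 without the dim arrays.

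The neighbouring steps place this one. They share the day 4 or the day 7 arrays with it, so that no overlap between their calls is given. From day 1 to day 4, 4 of the same 309 miRNAs were called (1.29%), namely rises of miR-195 and miR-497 and falls of miR-210 and miR-301b. From day 7 to day 14, 100 were called (32.4%), 23 rises and 77 falls. The counts for these 2 steps were 2 and 9 with normexp background correction. They were 21 and 146 with brightness as a covariate, and 40 and 202 with array weights. Of the 5 arrays under 1000 in brightness, 3 were of day 1 and 2 of day 4. The difference between the step from day 4 to day 7 and the one before it was called for 0 of 309 (0%; 4 at an unadjusted p under 0.05, lowest adjusted p 0.949). The difference between the step from day 7 to day 14 and the step from day 4 to day 7 was called for 36 (11.7%), with 6 more positive and 30 more negative in the later step. Without day 7 replicate 5 that count was 7 and without day 7 replicate 4 it was 22. With no scaling it was 2, with normexp background correction 0 and with brightness as a covariate 79. Without the dim arrays it was 26.

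Of the 100 steady miRNAs, 14 rose and 20 fell from day 7 to day 14, and for 10 the 2 steps differed by the test. MiR-335-5p was one of them: its value from day 7 to day 14 was -1.002, and the steps differed by -1.10 (adjusted p = 0.022, and 0.0616 without day 7 replicate 5). MiR-199a-5p fell by 0.93 after day 7 (difference of steps -0.97, adjusted p = 0.0172, and 0.0576 without that replicate). MiR-17*, from the growth-linked cluster, fell by 0.68 after day 7, with a difference of -0.66 (adjusted p = 0.0187, and 0.0576 without that replicate).

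The miR-29 family and the Dlk1-Dio3 region had the largest median differences between these 2 steps, 1.36 and -1.35. MiR-29a was at 0.18 from day 4 to day 7 and at 1.77 from day 7 to day 14, a difference of 1.59 (adjusted p = 0.0172, and 0.0526 without day 7 replicate 5). For miR-29b and miR-29c the difference was 0.53 (adjusted p = 0.854) and 1.36 (adjusted p = 0.134), so that it was not shown for them. In the Dlk1-Dio3 region 39 of 41 members fell from day 7 to day 14, with a median of -1.43. The steps differed for 22 of them, and for 4 without day 7 replicate 5. MiR-433 was at -2.38 after day 7 (difference -1.93, adjusted p = 0.0187) and miR-431 at -2.08 (difference -1.80, adjusted p = 0.0153). For the let-7 family the steps differed for 0 of 9 members.

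**Figure D4:**
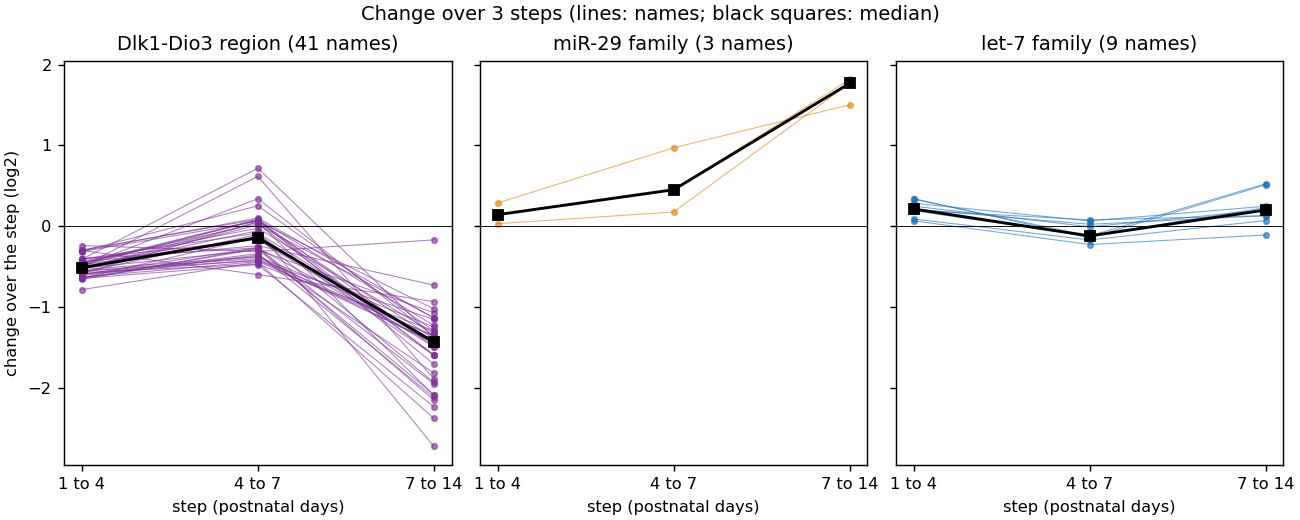
Change over each of 3 steps (log2, vertical axis) for the tested members of the Dlk1-Dio3 region, the miR-29 family and the let-7 family, with 1 line per miRNA and black squares at the list median. The medians from day 4 to day 7 lie near 0 for the Dlk1-Dio3 region and the let-7 family and at 0.45 for the miR-29 family, where it was 0.14 without the dim arrays; the medians from day 7 to day 14 lie at -1.43, 0.20 and 1.77, and neighbouring steps share arrays.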

How the data were processed

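Scanner images had been turned into signals by Agilent Feature Extraction 10.7.1.1, per the file headers and the submitters' processing notes. The deposited array files hold intensity values: the total signal per miRNA that this software gives, and a detection flag, both used as given. Steps before that are not given in the sources used here. The authors' deposited table of log2 values served as an alternative. How it was made is not given in the sources used here.

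Signals were scaled to a common 75th percentile, taken over the 226 mouse miRNAs that were detected throughout the 24 arrays. A floor of 2.27 was then applied (log2 1.18), before taking log2. Control spots and virus names stayed out. Tests used limma 3.58.1 in R 4.3.3, over all 24 arrays with 5 ages as groups (19 residual degrees of freedom) and Benjamini-Hochberg adjustment, and were two-sided. Steadiness used 2 one-sided tests against 1.5-fold. Precision rests on the number of arrays and on the spread between them. The fit was run on simulated data drawn independently for each miRNA and array. Deviations shared by many miRNAs of an array, as on the dim arrays, were not simulated. Normexp correction was run on median spot signals, since the files read hold no mean signals for it. Python 3.11.15, pandas 2.3.3, numpy 2.4.6, scipy 1.17.1 and matplotlib 3.10.9 were used for the rest.

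The miRNAs, lists and tests were chosen with earlier results of these data known. Named are the called miRNAs, the 10 brightest, the 6 steady ones with the narrowest limits beyond those, the 6 largest changes neither called nor steady among miRNAs detected on all 10 arrays, and up to 4 tested members of each list. Others are said to be picked after their values were seen: those of the 36 differing between steps, the calls of alternatives and the miRNAs without overlap.

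Replicate numbers were not used to pair the arrays in the main fit. Deviations from the age means correlated at -0.61, 0.67, -0.44, -0.57 and -0.54 between arrays with the same number. Such deviations sum to 0 within an age, so these correlations cannot show whether the numbers pair samples. The 3 slides of 8 arrays each held both ages, and the median change within them was -0.088, -0.0090 and -0.13. Nothing but the titles says that replicates came from separate animals, so p-values measure the spread between these samples. Leaving out each array, 5 other scalings or none, other backgrounds and filters, blocks and covariates were tried as alternatives.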

Additional observations from a re-analysis of the deposited data

Results flagged for a closer look

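On day 4, replicate 1 stood apart from the other arrays of its age. It detected 279 mouse miRNAs, against 315 to 328 on the others. MiR-143 was lowest there at 11.10 (others 11.52 to 11.64), miR-337-3p was lowest at 5.27 (others 5.86 to 6.09), and miR-483 was highest at 4.24 (others 3.398 to 3.63). On replicate 3, miR-335-3p was highest at 6.91 (others 6.56 to 6.64).

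On day 7, replicate 4 was highest for miR-126-3p at 15.06 (others 14.87 to 14.91), for miR-130a at 13.58 (others 13.37 to 13.40) and for miR-195 at 11.89 (others 11.68 to 11.70), and lowest for miR-34b-5p at 9.08 (others 9.80 to 9.90). Replicate 3 was lowest for miR-126-5p at 9.42 (others 10.04 to 10.21), for miR-143 at 11.50 (others 11.71 to 11.74) and for miR-222 at 6.26 (others 6.64 to 6.76). Replicate 5 was lowest for miR-15a at 12.17 (others 12.35 to 12.42). In all 12 miRNA values and 1 array count stood out among 154 groups of 5 values that were checked, and chance alone marks about 1 in 20 such groups.

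The change from day 7 to day 14 differed from the change from day 4 to day 7, by the contrast of the same limma fit, for 9 of the named miRNAs. The difference of the steps was 1.59 for miR-29a and 1.56 for miR-486, and it was negative for miR-17* at -0.66, miR-18a at -1.40, miR-199a-5p at -0.97, miR-335-3p at -1.70, miR-335-5p at -1.10, miR-431 at -1.80 and miR-433 at -1.93. Without day 7 replicate 5 each of the 9 had an adjusted p above 0.05 for this difference.

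Of the 39 virus names on the array, which are not part of the comparison, 3 were detected on all 10 arrays. Their mean levels on the day 7 arrays were 7.48 for mcmv-miR-M23-1-5p, 6.17 for mcmv-miR-m88-1 and 3.48 for mghv-miR-M1-2, and the changes from day 4 to day 7 were -0.22, 0.14 and -0.20. The labels name no infection, and the source of this signal was not tested.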

How the results depend on the processing

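The count of 0 called miRNAs stayed at 0 except with array weights (3) and with miRNAs detected on any of the 10 arrays (2). With the replicate block limma called 0, 93 miRNAs were steady and the median change was -0.055. The count of steady miRNAs, 100, became 24 with normexp background correction, 55 with no scaling and 146 with only the 10 arrays. It became 227 with brightness as a covariate and 251 with array weights. It was 0 with a margin of 0.32 on the log2 scale and 237 with a margin of 2-fold. The median change of -0.055 became -0.19 with normexp, -0.14 with median scaling, -0.12 with the 75th percentile over miRNAs detected on the 10 arrays, 0.27 with no scaling, 0.017 with brightness as a covariate and 0.0084 with array weights. The share of changes above 0, 41.7%, was 30.1% with median scaling, 24.6% with normexp and 84.5% with no scaling. Leaving out 1 array gave 0 calls, 79 to 127 steady miRNAs and medians of -0.11 to -0.0066.

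Settings chosen after seeing the data gave a median of 0.018: without the dim arrays (135 steady), without all 5 arrays under 1000 in brightness (192) and in the 10 arrays without the dim ones (254). The 36 miRNAs whose later step differed became 0 with normexp, 2 with no scaling, 79 with brightness as a covariate, 147 with array weights, and 7 to 39 with 1 array of these ages left out. The 75 named miRNAs, none of them called, had 2171 values under the alternatives: 1883 kept their side of the threshold for steadiness or a call, 112 were no longer steady and 176 became steady or called. The sign of the change is less settled, since 257 of these values, from 52 of the 75, had the other sign. Precision depended on the setting. In the fit used here the limits of the median miRNA reached 1.57-fold, and the median SE was 0.23. It was 0.16 with only the 10 arrays or with brightness as a covariate, and 0.10 in the 10 arrays without the dim ones.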
